A study of Mus musculus with 24 samples.

Results

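Mpdz, which encodes the multiple PDZ domain protein MPDZ (also called MUPP1), was followed through every cell type of the ventral hippocampus of C57BL/6J (B6) and DBA/2J (D2) mice. The gene was chosen by name, as 1 of the 33902 symbols of the single-nucleus RNA sequencing (snRNA-seq) table, and all of its columns were used. The study profiled nuclei of male mice of both inbred strains, aged 10 to 16 weeks and not treated, and pooled the ventral hippocampus of about 2 animals for each replicate. There were 2 snRNA-seq libraries and 2 single-nucleus ATAC sequencing (snATAC-seq) libraries for each strain, and ATAC sequencing reads out which stretches of chromatin are open. Neuronal nuclei were enriched by sorting before the snRNA-seq capture and were not enriched before the snATAC-seq capture. The nuclei had been grouped into 17 types: 8 excitatory (Exc), 3 inhibitory (Inh), 5 non-neuronal (NN) and Cajal-Retzius neurons (CR-CR). Both strains are inbred, so a difference between them cannot be assigned here to 1 allele.

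MPDZ is a scaffold built from many PDZ domains, short modules that hold the tails of membrane receptors, channels and junction proteins together at 1 place under the membrane. It binds serotonin 2 receptors and sits near the synapse in neurons, and at tight junctions in epithelia, where its paralog PATJ works with the Crumbs polarity complex. Mpdz lies in a stretch of mouse chromosome 4 to which crosses of B6 and D2 mapped the severity of withdrawal from alcohol and sedative drugs, and it has long been studied there as a candidate gene.

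In build GRCm38 the gene runs on the minus strand of chromosome 4, from 81278500 to 81442815, over 164 kb and with 16 annotated transcripts (Ensembl ENSMUSG00000028402.18, RefSeq gene 17475). The only other symbol of the table inside it was the small nucleolar RNA Gm25803, with 0 counts in B6 and 3 in D2. Introns had been counted, so the values are of nuclear transcripts, spliced and unspliced. Each strain was mapped to a reference of its own, and the part of this in the strain differences was not tested. Summed over all types, the libraries held 54045991 and 56452272 counts in B6 and 52113610 and 43048686 in D2, of which Mpdz took 5382, 6320, 4188 and 3195. Single columns, 1 per type and library, held 139713 to 11352265 counts from 45 to 1489 nuclei, and between 1 and 1785 counts of Mpdz. The marker genes of the type were the highest of 17 types in 10 of the 15 types that have a list here and ranked no lower than 4 in the others, while Exc-Gpc6 and Exc-Cdh12 have none.

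Mpdz was detected in all 17 types and was by far most abundant in the Lamp5 inhibitory neurons, in both strains. Levels are given as CPM, counts divided by the TMM-scaled total of their column, and each pair of values is library 2 and then library 3, as the table numbers them. In Inh-Lamp5, Mpdz stood at 340 and 384 CPM in B6 and at 301 and 233 CPM in D2. The next type in B6 was Exc-DG, the granule neurons of the dentate gyrus, at a mean of 151 CPM ± 12.7 (SD, n = 2), and every Inh-Lamp5 library lay above every Exc-DG library.

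In B6 the oligodendrocyte precursors (NN-OPC, mean 130 CPM), Inh-CGE (125), Exc-CA3 (122) and NN-VLMC (118) followed Exc-DG, and neighbours in this run overlapped in their libraries. Below a gap came Exc-CA1-Galntl6 (91.4), NN-ODC (90.8), Exc-CA1-Fras1 (89.3) and Exc-CA1-Camk2d (88.1), which again overlapped from 1 neighbour to the next, and then Inh-MGE (73.7), Exc-Gpc6 (73.0), Exc-ENT (71.0), NN-Astro (66.0) and CR-CR (62.2). Exc-Cdh12 stood lower at 45.3 CPM, and microglia (NN-MGC) were lowest at 10.0 CPM. In D2 the order began with Inh-Lamp5 (267), NN-VLMC (177), Exc-DG (114) and NN-OPC (99.2), with no overlap of libraries between these neighbours, and ended with Exc-Gpc6 (40.4), Exc-Cdh12 (33.5) and NN-MGC (2.87). Astrocytes held place 14 of 17 in B6, overlapping both neighbours, and place 9 in D2. The types had been clustered on expression, so these levels are a description and were not tested between types.

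**Figure D1:**
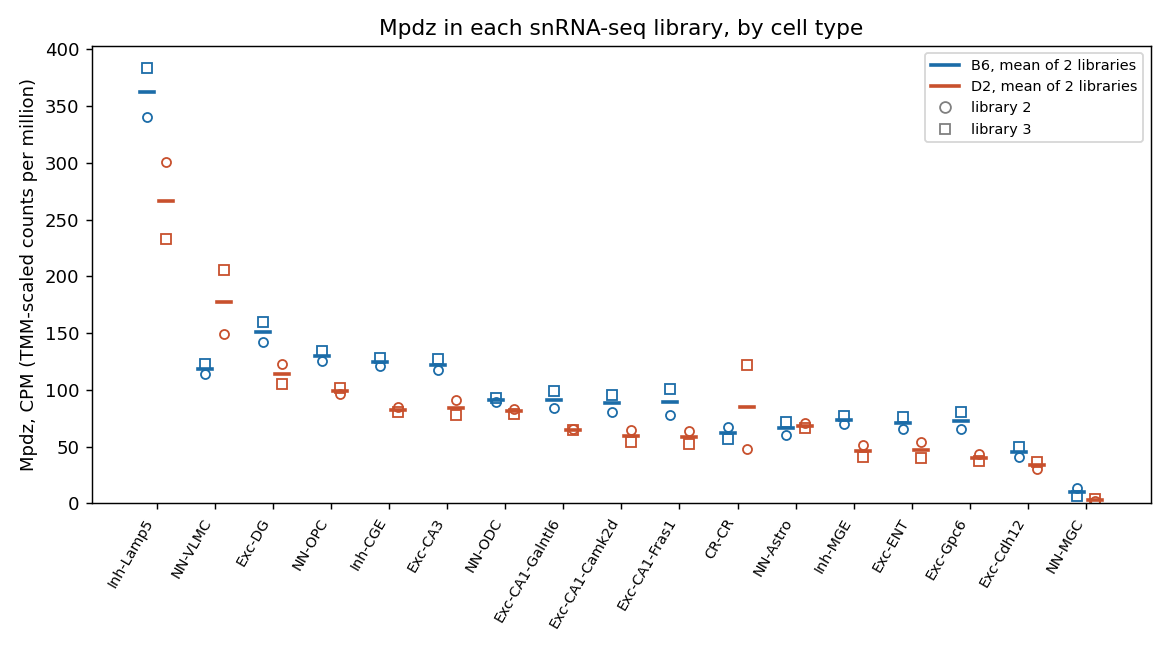
Mpdz in each of the 4 snRNA-seq libraries, by cell type in the order of the mean over libraries; the vertical axis is CPM after TMM scaling, circles are library 2, squares library 3 and bars the mean of a strain (blue B6, orange D2). Both D2 libraries lie below both B6 libraries in 14 of the 17 types, both lie above in NN-VLMC, and the strains overlap in NN-Astro and CR-CR. The types share the same 4 libraries, and the share of all symbols without overlap is not given beside this count.

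Mpdz was lower in D2 in nearly every neuronal type. In edgeR's quasi-likelihood test with Benjamini-Hochberg adjustment over all symbols of a type, it fell in 10 of the 16 types tested and rose in 0 (at an unadjusted p under 0.05 in 1, NN-VLMC, and with DESeq2 in 0). The 10 were 7 of the 8 excitatory types and all 3 inhibitory types, with a fitted loss of 23.4% to 44.1%, and the median log2 change over the 11 types of both classes was -0.56. Over all symbols and types, 9.25% of the tests were called lower in D2 and 12.9% higher, and the median change of all symbols stayed between 0.01 and 0.06 in each type. The 17 types come from the same 4 libraries and are therefore not independent repeats of the strain difference. B6 library 3 was above B6 library 2 in 11 of the 11 excitatory and inhibitory types, and D2 library 2 was above D2 library 3 in 10 of them, so the distance between libraries of a strain was also shared.

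In the dentate gyrus, Exc-DG gave 1472 and 1785 counts of Mpdz in B6 and 1111 and 854 in D2, or 142 and 160 CPM against 123 and 105. All B6 libraries were above all D2 libraries, but B6 library 2 and D2 library 2 were the closest pair. The log2 fold change, D2 minus B6, was -0.38 (SE 0.087, edgeR adjusted p = 0.00301) beside 13.8% of symbols called lower in this type, and without D2 library 3 it was -0.28 (adjusted p = 0.0579). In Exc-CA3, pyramidal neurons that receive the granule cell axons, Mpdz stood at 117 and 127 CPM in B6 and 91.0 and 77.6 in D2. The change was -0.51 (SE 0.100, edgeR adjusted p = 0.000625, with 12.9% of symbols called lower).

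The 3 groups named for CA1, whose neurons give the main output of the hippocampus, all had less Mpdz in D2. In Exc-CA1-Galntl6 the values were 83.7 and 99.1 CPM in B6 and 65.3 and 64.6 in D2, a log2 change of -0.49 (SE 0.094, edgeR adjusted p = 0.000627, 14.1% of symbols lower). In Exc-CA1-Fras1 they were 77.9 and 101 against 64.1 and 52.1, a change of -0.59 (SE 0.13, edgeR adjusted p = 0.00109, 12.3% lower). In Exc-CA1-Camk2d they were 80.5 and 95.7 against 64.6 and 54.2, a change of -0.57 (SE 0.139, edgeR adjusted p = 0.0103, 7.40% lower). The strains did not overlap in any of the 3, and the Exc-CA1-Camk2d call was lost with DESeq2 (adjusted p = 0.126) and when either D2 library was left out. Exc-CA1-Fras1 carried CA3 markers at 234 and 224 CPM in B6 and 234 and 204 in D2. Its CA1 markers summed to 202 and 212 against 242 and 229. In B6 the CA3 markers summed to 76.8 and 72.0 CPM in Exc-CA1-Camk2d and to 55.5 and 55.1 in Exc-CA1-Galntl6.

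The largest difference lay in Exc-Gpc6, an excitatory type named by its marker alone. There Mpdz had 124 and 185 counts in B6 and 105 and 57 in D2, which is 65.9 and 80.2 CPM against 43.3 and 37.5. The log2 change was -0.84 (SE 0.159, edgeR adjusted p = 8.2e-05), a loss of 44.1%. Among the called types, the share of symbols that changed by more in size than Mpdz was highest in Exc-DG, at 39.3%. It was lowest, at 14.9%, in Exc-Gpc6, where 8.79% of symbols were called lower. The markers did not keep their levels there: the 3 CA3 markers summed to 171 and 169 CPM in B6 and 90.6 and 94.1 in D2, and the 3 entorhinal markers to 372 and 342 against 483 and 428. Exc-ENT, named for the entorhinal cortex next to the hippocampus, had 65.6 and 76.4 CPM in B6 and 54.4 and 39.8 in D2. The change was -0.56 (SE 0.129, edgeR adjusted p = 0.000663, 11.6% lower), and without D2 library 3 it was -0.38 (adjusted p = 0.0527). In that type the CA3 markers summed to 286 and 234 CPM in B6 and 559 and 452 in D2, and the entorhinal markers to 234 and 226 against 327 and 324. Exc-Cdh12 was the excitatory type that was not called. Its counts were 22 and 52 in B6 and 40 and 29 in D2, its levels 41.2 and 49.4 CPM against 30.7 and 36.2, and its change -0.48 (SE 0.258, edgeR adjusted p = 0.350, 3.41% of symbols lower). Its standard error of 0.258 stood beside one of 0.0873 in Exc-DG, the type with the most counts.

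Marker sums moved with strain in the other types called for Mpdz too. The 3 dentate markers in Exc-DG summed to 363 and 384 CPM in B6 and 279 and 285 in D2, and the 3 Lamp5 markers in Inh-Lamp5 to 1318 and 1390 against 1637 and 2066. Of the 10 called types, the oligodendrocyte markers Mog, Mbp and Mobp were lower in D2 with no overlap in 9, with 151 and 152 CPM against 113 and 105 in Exc-DG. The fibroblast markers Dcn, Col1a2 and Slc6a13 were higher in D2 with no overlap in all 10. They summed to 108 and 136 CPM against 194 and 197 in Exc-CA1-Fras1, but to 11.6 and 13.0 against 15.7 and 14.1 in Exc-DG. Their level thus differed widely between neuronal types. The microglial markers in B6 summed to 341 and 330 CPM in Exc-DG and to 51.0 and 61.6 in NN-ODC. Whether such transcripts came from other cells or from the type itself was not tested. By the same rule of no overlap, precursor markers were lower in 8 and higher in 1, microglial markers lower in 7, and endothelial and pericyte markers higher in 5. The strains overlapped in 8 of the 10 types for interneuron markers, 7 for entorhinal, 6 for CA1 and 6 for astrocyte markers. The ependymal and choroid plexus markers Ttr, Foxj1 and Folr1 were lower in 6. In Exc-DG they summed to 3.96 and 12.2 CPM against 1.99 and 1.11, and B6 library 3 was highest, as for Mpdz. The 10 types share the same 4 libraries, and no share of all symbols without overlap is given beside these counts, which are descriptions. The part of these marker shifts in the Mpdz values, in Exc-Gpc6 and Exc-ENT as in the others, was not tested.

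Among inhibitory neurons, Inh-MGE (cells of the medial ganglionic eminence, the source of Pvalb and Sst interneurons) had 70.4 and 77.0 CPM in B6 and 51.9 and 40.6 in D2. The change was -0.65 (SE 0.139, edgeR adjusted p = 0.00228, 7.84% of symbols lower). Inh-CGE, from the caudal eminence and marked by Vip and Adarb2, had 121 and 128 CPM against 84.6 and 80.5, with a change of -0.59 (SE 0.133, edgeR adjusted p = 0.00370, 6.02% lower). Here the libraries of a strain lay close together and the strains far apart. In Inh-Lamp5, the type richest in Mpdz, the change was -0.43 (SE 0.138, edgeR adjusted p = 0.0413, 5.61% lower). The Inh-Lamp5 call was lost with DESeq2 (adjusted p = 0.316), without B6 library 3 (0.298) and without D2 library 3 (0.483), and the Inh-CGE call with DESeq2 (0.0878) and when either D2 library was left out (0.237 without library 2 and 0.285 without library 3).

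DESeq2 with its defaults called Mpdz lower in 7 types, and edgeR without D2 library 3 in 5. Expressed per nucleus rather than as CPM, Mpdz was lower in D2 in all 11 excitatory and inhibitory types, with log2 differences of -0.39 to -1.06 in the 10 that were called. Summed over all types, Mpdz stood at 102 and 113 CPM in B6 and 80.2 and 72.1 in D2, a log2 change of -0.49 (SE 0.0778, edgeR adjusted p = 9.8e-05) beside 16.0% of symbols called lower. In this sum, fewer nuclei of a type and less RNA per nucleus cannot be told apart. With 2 libraries a side, an exact permutation test could not go below p = 0.33, so each p rests on a variance shared across symbols.

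**Figure D2:**
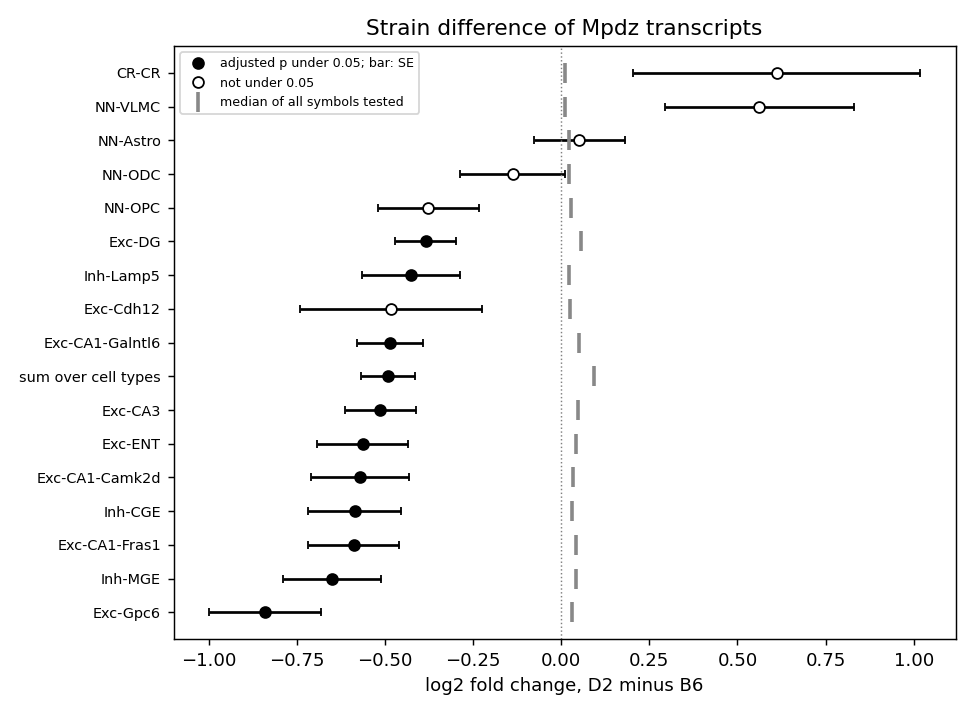
Log2 fold change of Mpdz, D2 minus B6, in the 16 types tested and in the sum over types (horizontal axis), with bars of 1 standard error; filled points have an edgeR adjusted p under 0.05 and grey ticks mark the median change of all symbols in that type. The 10 called types and the sum lie between -0.38 and -0.84, NN-Astro at 0.05, and NN-VLMC and CR-CR at 0.56 and 0.61 with the widest bars.

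Non-neuronal types gave no call for Mpdz, and the values differed among them. In astrocytes (NN-Astro) Mpdz had 191 and 237 counts in B6 and 243 and 242 in D2, or 59.9 and 72.1 CPM against 70.4 and 66.5, and the strains overlapped. The log2 change was 0.05 (SE 0.13, edgeR adjusted p = 0.823) in a type where 11.7% of symbols were called lower. Transcripts of excitatory neurons were present in these nuclei as well: the summed excitatory markers were 74.0 and 69.9 CPM in B6 and 65.5 and 49.2 in D2, and the part they have in the astrocyte value of Mpdz was not tested. Oligodendrocytes (NN-ODC) stood at 89.0 and 92.7 CPM in B6 and 83.1 and 78.9 in D2. Their libraries did not overlap, but the change of -0.14 (SE 0.150, edgeR adjusted p = 0.605, 8.93% of symbols lower) was within its error. In NN-OPC Mpdz had 125 and 134 CPM against 96.5 and 102, with a change of -0.38 (SE 0.143, edgeR adjusted p = 0.0548, 7.30% lower), as large as in Exc-DG and just short of a call.

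In NN-VLMC and CR-CR the log2 change was above 0.5, beside 0.05 in astrocytes, and in both types the markers moved with strain. In vascular and leptomeningeal cells (NN-VLMC) Mpdz had 114 and 122 CPM in B6 and 149 and 205 in D2, the one type in which both D2 libraries were above both B6 libraries. The change was 0.56 (SE 0.268, edgeR unadjusted p = 0.0422, adjusted p = 0.259), in a type where 4.76% of symbols were called lower. The 3 fibroblast markers Dcn, Col1a2 and Slc6a13 summed to 1051 and 1035 CPM in B6 and 1275 and 1505 in D2, and the 3 endothelial and pericyte markers Cldn5, Flt1 and Pdgfrb to 857 and 830 against 521 and 533. Of these 6, Dcn rose (log2 change 0.89, edgeR adjusted p = 0.00727) and Flt1 fell (-0.94, adjusted p = 0.00341), and the part of this shift in the Mpdz value was not tested. In CR-CR Mpdz had 31 and 26 counts in B6 and 7 and 21 in D2, or 67.3 and 57 CPM against 48.0 and 122. D2 library 3 alone was high, and without it the change of 0.61 (SE 0.406, edgeR adjusted p = 0.508, 2.09% of symbols lower) became -0.25. The Cajal-Retzius markers Trp73, Ndnf and Reln summed to 6029 and 6879 CPM in B6 but 3600 and 1479 in D2, from 309 nuclei in B6 and 91 in D2.

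Microglia held too few counts for a test, with 7 and 5 in B6 and 1 and 2 in D2. The ratio of D2 to B6 per count was 0.305, with an exact 95% interval of 0.0552 to 1.13 that covers counting error only.

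Whether the strain difference of Mpdz varied among types was tested in 1 edgeR fit over all columns, with library and type as terms. The strain by type terms together gave F = 4.48 (adjusted p = 6.0e-05), while 14.6% of 21050 symbols were called by this test. Without NN-MGC, NN-VLMC and CR-CR, left out after their values were seen, F was 3.46 (adjusted p = 0.00610). Within the 12 neuronal types alone, CR-CR among them, F was 1.92 (adjusted p = 0.311). No difference in the strain change was thus detectable between these types at this depth. Without D2 library 3 the full test gave F = 2.34 (adjusted p = 0.0837).

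A contrast chosen after seeing the values set the mean change of the 11 excitatory and inhibitory types against single non-neuronal groups. Against the mean of all 5 non-neuronal types the difference was -0.25 (SE 0.207, edgeR adjusted p = 0.750). With each library left out it ran from -0.43 (without B6 library 2) to -0.05 (without D2 library 3). This mean gave equal weight to NN-MGC, which had 12 counts of Mpdz in B6 and 3 in D2. The difference without NN-MGC was not tested, so the contrast cannot decide whether neuronal and non-neuronal types differ. Astrocytes, the non-neuronal type with the most Mpdz counts, were taken after they were seen to show no loss. The value against them is therefore a description. It was -0.64 (SE 0.131), between -0.60 and -0.70 with each library left out, in a contrast where 5.97% of symbols were called. NN-OPC and NN-ODC were not contrasted singly.

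The genes beside Mpdz on chromosome 4 did not all move with it. Lurap1l, a leucine-rich adaptor gene 323 kb away, was lower in D2 in 5 of the 14 types where it was tested: in Exc-DG it had 89.7 and 66.4 CPM in B6 and 48.4 and 47.2 in D2 (log2 change -0.69, edgeR adjusted p = 0.000553). On the same side, 3067 kb away, the receptor phosphatase gene Ptprd was lower in 6 of 17 types, with 1431 and 1753 CPM against 1064 and 1005 in Exc-CA3 (-0.60, edgeR adjusted p = 2.6e-05). Dmac1, a mitochondrial assembly factor gene 6000.2 kb away, was higher in 1 of 12 types, NN-OPC (1.17, edgeR adjusted p = 0.0464). On the other side, the transcription factor gene Nfib at 847 kb was lower in 4 of 17 types, the palmitoyltransferase gene Zdhhc21 at 1356 kb in 1 of 17 and the matrix gene Frem1 at 1455 kb was higher in 1 of 7. Over all pairs of symbol and type, 9.25% were called lower and 12.9% higher. In Exc-Gpc6, where Mpdz fell most, Nfib was at 195 and 173 CPM in B6 and 142 and 127 in D2 (-0.44, edgeR adjusted p = 0.00529). In astrocytes, where Mpdz was not called, Zdhhc21 fell by 0.43 on the log2 scale (edgeR adjusted p = 0.00822).

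Genes with a pattern over types like that of Mpdz were ranked by the lower of the Pearson correlations in B6 and D2 over 17 types, on log2(CPM + 1), among 12779 symbols. The first 5 were Ranbp17 (0.81), Zfp507 (0.76), Cttn (0.75), F8 (0.75) and Acyp2 (0.71). Of these, Acyp2 was lower in D2 in 6 types, Cttn and F8 in 1 each, Ranbp17 was not called, and Zfp507 was higher in 13 types. With Spearman's correlation 0 of these 5 were among the first 5 and 2 among the first 50. The 17 points share the same 4 libraries, and the ranking is a description.

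Proteins known to bind MPDZ were followed as a list of 16 genes, of which 15 were tested in at least 1 type. In 167 tests over the 17 types, 31 were lower in D2 (18.6%, against 9.25% of all tests) and 6 higher (3.59%, against 12.9%), and the median log2 change was -0.15 beside 0.03 for all symbols. The polarity list, with the paralog Patj and its partners, had 14 genes, of which 13 were tested. In its 172 tests, 7 were lower (4.07%) and 12 higher (6.98%), with a median of 0.05. DESeq2 called 12 lower and 2 higher in the partner list and 4 and 0 in the polarity list. No background over all symbols is given beside these DESeq2 counts. The types share libraries and each gene counts once per type, so these shares are descriptions of the lists.

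Among the receptors that MPDZ binds, Htr2b was lower in D2 in 7 types by edgeR, of them 6 excitatory and Inh-MGE, and in 3 types by DESeq2. In Exc-CA3 it had 76.2 and 78.2 CPM in B6 and 52.0 and 53.4 in D2 (log2 change -0.53, edgeR adjusted p = 0.000462), but the gene lies on the opposite strand of Psmd1, a proteasome subunit gene, and reads of the pair may have been split between them. Htr2c, the serotonin receptor to which MPDZ was first found to bind, was called higher in D2 in 3 types and lower in 2 by edgeR, and by DESeq2 in 0 of the 3 and 1 of the 2. In Exc-ENT it had 354 and 325 CPM in B6 against 281 and 275 in D2 (-0.27, edgeR adjusted p = 0.0115), and in Exc-CA1-Fras1 77.0 and 92.0 against 110 and 101 (0.35, edgeR adjusted p = 0.0197). The GABA-B receptor subunit gene Gabbr2 was lower in 2 types by DESeq2 and in 6 by edgeR, among these 6 Exc-DG with 574 and 557 CPM against 492 and 454 (-0.24, edgeR adjusted p = 0.0107). Of the 6, 3 were NN-Astro, NN-OPC and NN-ODC, which are also among the types where Camk2a was lower. The summed excitatory markers were lower in D2 in NN-ODC (89.0 and 83.0 CPM against 69.3 and 53.8) and in NN-Astro, and their part in these values was not tested.

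Of the synaptic enzymes that meet at MPDZ, the calcium-dependent kinase gene Camk2a was lower in 7 types by edgeR and in 5 by DESeq2. In Exc-DG it had 1141 and 1168 CPM in B6 and 964 and 933 in D2 (log2 change -0.27, edgeR adjusted p = 0.00234). In astrocytes, a type that should make little of it, it stood at 107 and 98.8 CPM against 67.5 and 52.8 (-0.78, edgeR adjusted p = 5.3e-06), beside the lower excitatory markers given above, and Mpdz did not fall with it there.

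In the polarity list, Lin7a, a small scaffold gene of the Crumbs complex, was lower in D2 in 5 types by edgeR and in 2 by DESeq2. In Exc-DG it had 54.5 and 58.8 CPM in B6 and 41.6 and 44.6 in D2 (log2 change -0.38, edgeR adjusted p = 0.00432). Patj, the paralog, was higher in 2 types. In Exc-Gpc6, where Mpdz fell most, Patj had 60.02 and 61.5 CPM in B6 and 99.7 and 86.2 in D2 (0.63, edgeR adjusted p = 0.000586). In Inh-Lamp5 Patj had 32.9 and 42.5 CPM in B6 and 18.0 and 28.2 in D2 (-0.71, edgeR adjusted p = 0.165), and DESeq2 called Patj in 0 types. Both types were picked after their values were seen. Among the Par6 genes, Pard6g was higher in 3 types, with 37.2 and 36.9 CPM in Inh-CGE in B6 and 53.7 and 54.0 in D2 (0.55, edgeR adjusted p = 0.0401), and overlaps the genes Gm21886 on the other strand and AC131065.4 on its own. Pard6a and Crb1 were each higher in 2 types at levels under 15 CPM, Crb1 in Exc-DG with 4.25 and 4.66 CPM against 8.42 and 7.91 (0.89, edgeR adjusted p = 0.00274). DESeq2 called Pard6g, Pard6a and Crb1 in 0 types.

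**Figure D3:**
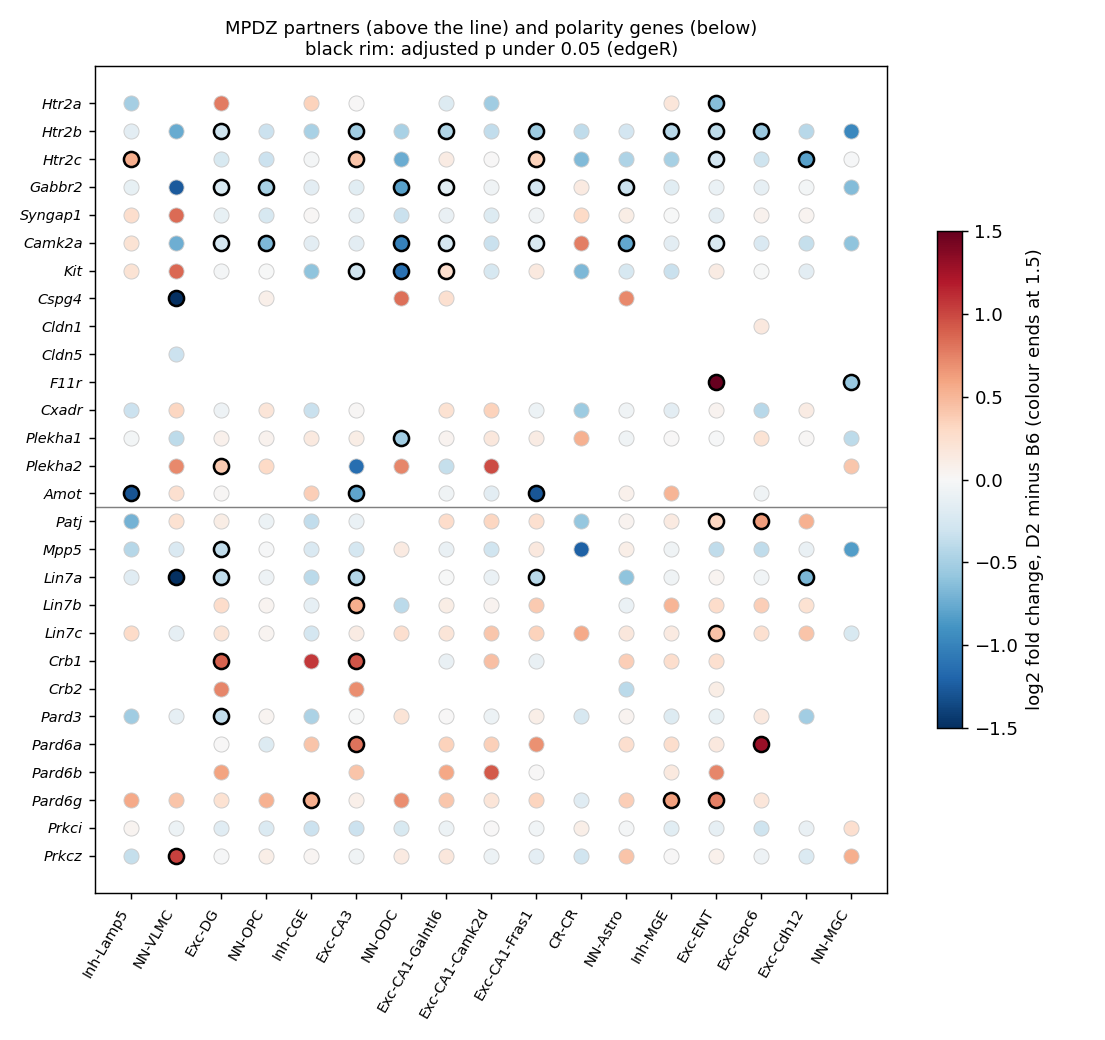
Log2 fold change, D2 minus B6, of each tested member of the MPDZ partner list (above the grey line) and of the polarity list (below) in each snRNA-seq type, with the types in order of their Mpdz level; blue is lower and red higher in D2, a black rim marks an edgeR adjusted p under 0.05 and a missing point was not tested. The 31 rims in blue and 6 in red above the line, and 7 and 12 below it, are the calls counted in the text.

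Chromatin over Mpdz was read from 38 snATAC-seq peaks that overlap the gene or the 2 kb beyond its ends, of 300819 peaks in the table. Counts were tested in the 8 types with at least 500 nuclei in each strain, all of them excitatory but for Inh-MGE, with 3029469 to 27815541 counts a column. Of 286 pairs of peak and type, edgeR called 12 (4.20%), of which 4 were lower and 8 higher in D2, and 39 had an unadjusted p under 0.05. Of all peaks tested, the share called in either direction was 5.97% in Exc-DG, 5.26% in Exc-CA1-Galntl6, 5.03% in Exc-CA3, 2.56% in Exc-CA1-Camk2d, 2.41% in Exc-Gpc6, 2.18% in Exc-CA1-Fras1, 1.39% in Exc-ENT and 0.870% in Inh-MGE. At Mpdz the calls were 5 of 38 peaks in Exc-DG, 3 of 38 in Exc-CA1-Galntl6, 2 of 38 in Exc-CA3, 1 of 37 in Exc-CA1-Camk2d and 1 of 38 in Exc-CA1-Fras1. None of 26 peaks in Exc-Gpc6, 35 in Exc-ENT and 36 in Inh-MGE was called. The median log2 change of the 286 pairs was 0.04.

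The peak at the start of the gene, from 81441934 to 81443225, was not called different between strains in any of the 8 types, by edgeR or DESeq2, nor had it an unadjusted p under 0.05 in any. It spans exon 1 of the main transcript Mpdz-201 and the start of 3 others, and with 104 CpG dinucleotides, or 80.5 per kb, it is denser in CpG than 99.2% of all peaks. In Exc-DG it had 411 and 413 counts in B6 and 307 and 502 in D2, or 16.6 and 19.0 CPM against 17.4 and 18.2. The log2 change there was 0.00, with a 95% interval of -0.17 to 0.18, and over the 8 types the changes ran from -0.21 to 0.13 (edgeR adjusted p 0.629 to 1.00). In Exc-Gpc6 it was -0.01, with an interval of -0.32 to 0.30, beside a transcript change of -0.84. In each of the 8 types the lower end of the interval for the gene start lay above the fitted transcript change, and the difference between the assays was not tested.

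**Figure D4:**
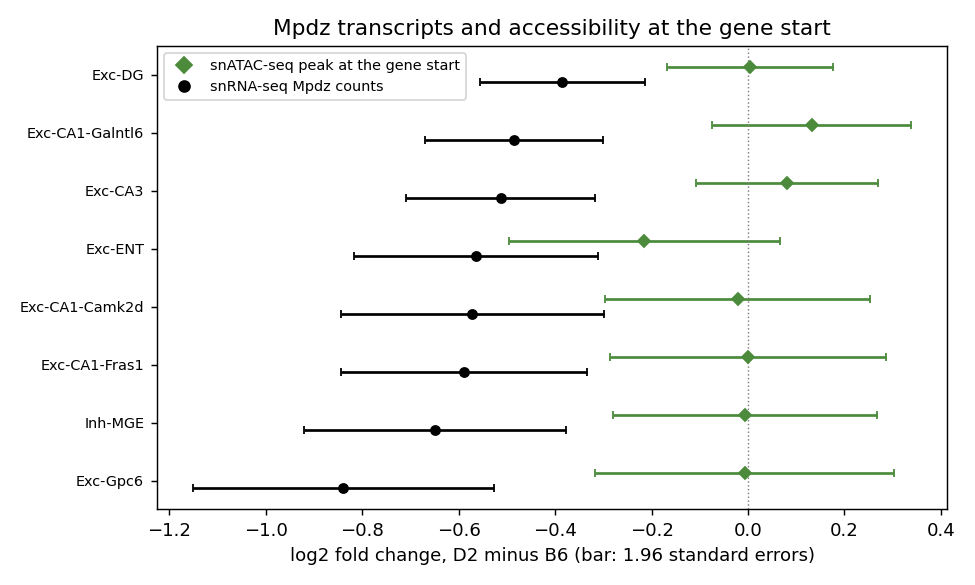
Log2 fold change, D2 minus B6, of Mpdz transcripts (black circles) and of accessibility at the gene start peak (green diamonds) in the 8 types tested for both. Bars are 95% intervals taken from the standard error under a normal spread, which for the transcripts are narrower than those of the edgeR test. The transcript values lie between -0.38 and -0.84 and the accessibility values between -0.21 and 0.13.

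An internal start, that of the noncoding transcript Mpdz-205, lies in a peak from 81332305 to 81334129. Its mean level was second to that of the gene start among the 38 peaks, and it was called in 0 of the 8 types, by edgeR or DESeq2. At an unadjusted p under 0.05 it was higher in D2 in 3 of them, by 0.18 in Exc-DG, 0.25 in Exc-CA1-Galntl6 and 0.26 in Exc-CA1-Camk2d on the log2 scale. Over the 15 types with snATAC-seq, the gene start peak and Mpdz transcripts had a Pearson r of 0.27 and a Spearman rho of 0.25 in mean level, and the sum of the 38 peaks and Mpdz transcripts 0.49 and 0.74. These 15 points share their libraries and differ in depth, and the relation is a description.

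Of the 8 peaks at Mpdz called by edgeR in at least 1 type, 3 were also called by DESeq2. These 3 lay far inside the gene, and their sequence is shown. The bases are those of the B6 reference, build GRCm38, on the plus strand, with CpG dinucleotides in capitals. For peaks over 300 bases the central 300 are given, and the positions at which D2 differs from B6 in them were not analysed here. As whole peaks, the first overlaps coding exon 39 and holds 16.5 CpG per kb, the second overlaps coding exon 31 with 8.00 and the third lies in an intron with 11.8. The bases printed hold 16.7, 13.3 and 11.8 CpG per kb, and exon overlap was not taken for them alone. Of 300776 peaks with sequence, 95.2% hold at least 1 CpG, and the median density was 10.5 per kb with quartiles of 5.93 and 16.9, so these 3 are ordinary in this respect.
chr4:81290208-81290507: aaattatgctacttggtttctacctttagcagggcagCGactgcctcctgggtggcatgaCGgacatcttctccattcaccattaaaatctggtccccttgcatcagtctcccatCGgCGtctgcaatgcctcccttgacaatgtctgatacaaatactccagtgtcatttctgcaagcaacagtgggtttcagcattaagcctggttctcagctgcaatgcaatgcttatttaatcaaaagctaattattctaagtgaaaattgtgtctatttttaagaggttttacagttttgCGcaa
chr4:81306324-81306623: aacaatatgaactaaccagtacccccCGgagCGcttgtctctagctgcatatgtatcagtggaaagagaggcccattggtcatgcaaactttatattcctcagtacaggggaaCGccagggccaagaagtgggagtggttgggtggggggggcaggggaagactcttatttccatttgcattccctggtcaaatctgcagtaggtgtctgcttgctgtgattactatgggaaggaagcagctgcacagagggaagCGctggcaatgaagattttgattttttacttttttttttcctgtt
chr4:81362516-81362769: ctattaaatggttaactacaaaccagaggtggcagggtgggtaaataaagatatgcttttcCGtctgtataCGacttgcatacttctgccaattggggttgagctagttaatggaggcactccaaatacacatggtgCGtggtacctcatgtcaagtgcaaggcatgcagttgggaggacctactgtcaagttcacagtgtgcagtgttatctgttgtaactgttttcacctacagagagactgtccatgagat

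The peak on exon 39 (81290207 to 81290509, 152 kb into the gene) was lower in D2 in Exc-DG. It had 89 and 102 counts in B6 and 20 and 34 in D2, or 3.60 and 4.70 CPM against 1.13 and 1.23. The strains were far apart, and the log2 change was -1.79 (SE 0.227, edgeR adjusted p = 4.9e-12).

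The peak on exon 31 (81306099 to 81306848, 136 kb in) was lower in D2 in 2 of the groups named for CA1. In Exc-CA1-Galntl6 it had 72 and 54 counts in B6 and 11 and 14 in D2, a log2 change of -2.39 (SE 0.295, edgeR adjusted p = 1.1e-13). In Exc-CA1-Fras1 it had 30 and 36 counts against 5 and 4, a change of -3.31 (SE 0.427, edgeR adjusted p = 5.9e-12). These were the largest differences of any peak called at Mpdz, and the part of mapping to different references in them was not tested.

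The intron peak (81362516 to 81362769, 80.2 kb in) went the other way. In Exc-DG it had 38 and 36 counts in B6 and 65 and 103 in D2, or 1.54 and 1.66 CPM against 3.67 and 3.74, a log2 change of 1.21 (SE 0.216, edgeR adjusted p = 2.7e-06). In Exc-CA1-Galntl6 it had 6 and 6 counts against 20 and 22, a change of 1.72 (edgeR adjusted p = 0.00607) that DESeq2 did not call (adjusted p = 0.469).

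Beside it, the peak on exon 14 (81363201 to 81364048) was higher in D2 in 3 types. Its log2 changes were 0.38 in Exc-DG (edgeR adjusted p = 0.0232), 0.72 in Exc-CA1-Galntl6 (0.000368) and 0.98 in Exc-CA3 (0.00244), where the counts were 33 and 26 in B6 and 52 and 82 in D2. The peak next to that (81364316 to 81364831, intron) was lower in Exc-CA3, with 34 and 41 counts against 21 and 22 (-1.0, edgeR adjusted p = 0.0210). Neighbouring peaks of this short stretch were thus called in opposite directions.

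Of the other called peaks, those in introns at 81372259 to 81373240 and 81334462 to 81335119 were higher in Exc-DG, with log2 changes of 0.65 (edgeR adjusted p = 0.00115) and 0.74 (0.0177). The peak over the last exon and its untranslated part (81278079 to 81278992) was higher in Exc-CA1-Camk2d, with 15 and 35 counts in B6 and 57 and 75 in D2 (0.94, edgeR adjusted p = 0.0219). DESeq2 called none of the 7 pairs of type and peak at the exon 14 peak, the intron peak next to it and these last 3. Of the 12 pairs called, 6 were called again with each of the 4 libraries left out: the 3 on exons 39 and 31, the intron peak at 81362516 in Exc-DG, the exon 14 peak in Exc-CA1-Galntl6 and the intron peak at 81372259 in Exc-DG.

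**Figure D5:**
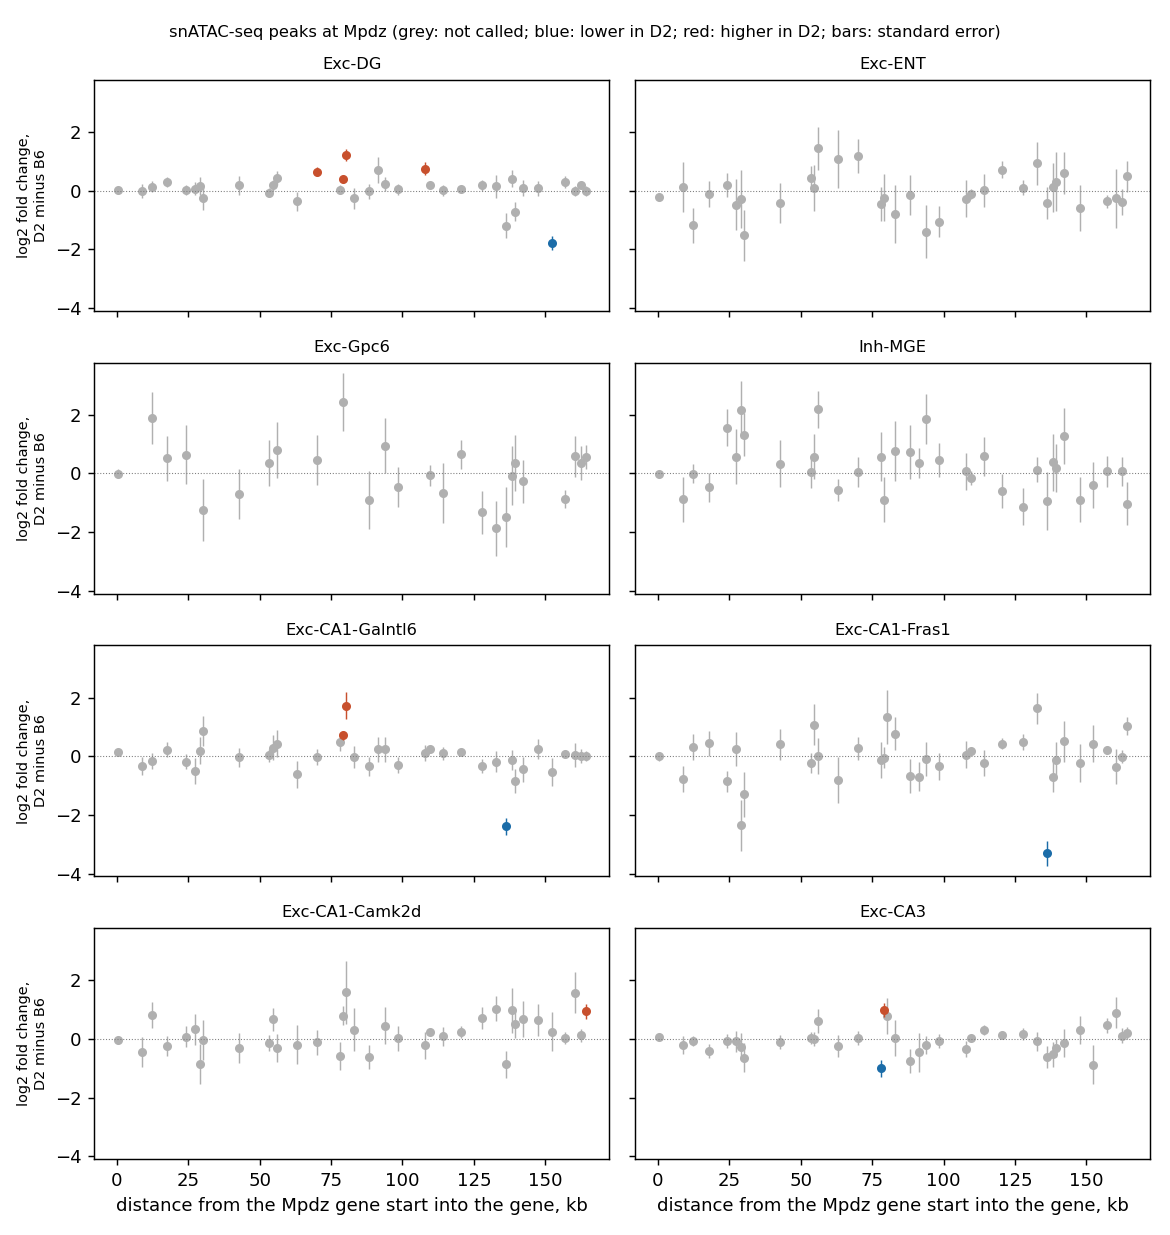
Log2 fold change, D2 minus B6, of each tested snATAC-seq peak at Mpdz (vertical axis) by its distance from the gene start in kb (horizontal axis), 1 panel per type, with bars of 1 standard error; blue peaks were lower and red higher in D2 at an edgeR adjusted p under 0.05, and grey peaks were not called. The gene start peak at 0.236 kb lies near 0 in every panel, and the 2 exon peaks with the largest losses lie at 152 and 136 kb.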

How the data were processed

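Ventral hippocampus nuclei from males of the B6 and D2 strains were measured by snRNA-seq and snATAC-seq, with 2 libraries per strain and assay. Per the labels and the methods of the study, reads were mapped with Cell Ranger 6.0.2 (introns kept) and Cell Ranger ATAC 2.0.0, to mm10 for B6 and to mm10 with D2 single-base variants put in for D2. Peaks were called per sample and merged, doublets were removed, and snATAC-seq types were transferred from snRNA-seq. The authors deposited raw counts per symbol or peak, summed per type and library, and counts of nuclei, and those tables were used as they stand. Columns of per-sample values left unused numbered 0. The column names number the libraries 2 and 3 while the labels number them 1 and 2, so columns were placed by strain only.

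Counts were tested per type with edgeR 4.0.16 in R 4.3.3 (quasi-likelihood, TMM, filterByExpr for symbols, at least 10 counts for peaks), D2 minus B6, with Benjamini-Hochberg adjustment over all symbols or peaks of a type and a call at an adjusted p under 0.05. Whether the strain difference varied among types was tested in 1 joint edgeR fit. The same scripts were checked on simulated counts. Alternatives were DESeq2 1.42.0, the test of the study, RLE factors, no filter, symbols counted in both strains only, a replicate block, counts per nucleus and leaving out each library. Mpdz, the gene lists and the tests were chosen with earlier results of these data known. Genes named beside Mpdz are the 5 most alike in pattern, symbols inside the gene, the 3 nearest tested coding genes on each side, up to 4 list members in each direction called in the most types (Patj, the paralog, was added after its values were seen), and the called peaks with the one at the gene start. The methylation samples and the other strains were not analysed here. Replicates were pools of about 2 animals, so p-values measure the spread between pools.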

Additional observations from a re-analysis of the deposited data

Results flagged for a closer look

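The strain difference of Mpdz was not the same in all types: in 1 joint edgeR fit the strain by type terms had an adjusted p of 6.0e-05, beside 14.6% of symbols called by the same test. The test singles out no type. It was past the threshold without NN-MGC, NN-VLMC and CR-CR (adjusted p = 0.00610) and not among neuronal types alone (0.311) or without D2 library 3 (0.0837). Each group held 2 libraries, too few to look for a single library that stands apart by a formal test.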

How the results depend on the processing

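The loss of Mpdz in Exc-CA3, Exc-CA1-Galntl6, Exc-CA1-Fras1, Exc-Gpc6, Inh-MGE and the sum over types kept its direction and its call in every alternative with a test. With DESeq2 the calls in Exc-CA1-Camk2d (-0.57), Inh-Lamp5 (-0.45) and Inh-CGE (-0.60) were lost, peak calls fell from 12 to 4 and list calls from 56 to 18. The numbers 2 and 3 pair no samples in the labels, and deviations of same-numbered libraries correlated between -0.16 and 0.06. The replicate block on them lost the Inh-Lamp5 call (-0.43, adjusted p = 0.0573) and no other call for Mpdz. Counts per nucleus gave -1.06 in Exc-Gpc6, -0.48 in NN-OPC, -0.42 in Inh-CGE and -0.71 in Exc-Cdh12. In neuronal types alone the joint test gave F = 1.92, and Spearman's correlation shared 0 of the 5 most alike symbols. Leaving out each library in turn gave ranges of -0.50 to -0.28 in Exc-DG, -0.065 (without B6 library 2) to 0.19 in NN-Astro, -0.70 to -0.45 in Exc-CA1-Camk2d, -0.81 to -0.38 in Exc-ENT, -0.62 to -0.28 in Inh-Lamp5, -0.62 to -0.55 in Inh-CGE and -0.25 to 1.06 in CR-CR (-0.25 without D2 library 3). The number of types called ran from 5 (without D2 library 3) to 10, F of the joint test from 2.34 to 5.04, peak calls from 6 (without D2 library 2; 7 without B6 library 2 or D2 library 3) to 10 and list calls from 32 (without D2 library 3; 36 without D2 library 2) to 53, with fewer libraries in each fit by construction. A lone library was assumed to vary like the other strain. The shares of all symbols and peaks called with DESeq2 or with a library left out are not given here. The counts of peak and list calls in these alternatives therefore have no background beside them. For the other lost calls the cause was not tested. NN-MGC and 7 snATAC-seq types had too few counts or nuclei for a test.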
